A study of Homo sapiens with 12 samples.

Results

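The circular RNAs (circRNAs) and host genes described here lie on the distal long arm of human chromosome 8, from position 100000000 of hg19 to the chromosome end. Every row on chromosome 8 with a start in that range was taken from the circRNA tables of both experiments. That gave 501 distinct circRNAs of 44042 in all, with 336 of 29693 in the table of experiment 1, 311 of 26796 in that of experiment 2 and 146 in both. They were assigned to 76 host genes of 7781, against 1121 circRNAs and 204 hosts on the rest of chromosome 8, which served as the reference. The region was chosen because its hosts were low in the clone of experiment 2, so values from experiment 2 are a description. Where features past the test's threshold are counted in experiment 2, the count is set beside the share over all features and nothing is read from it, and only the tests of experiment 1 are independent of the choice.

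The study measured total RNA by sequencing in HEK293 cells, an established human embryonic kidney line, with and without the splicing factor RBFOX1. Experiment 1 compared the stable line HEK293_Flp In/TO ΔFox2_Flag_mFox1 without doxycycline (uninduced, 3 libraries) and with doxycycline (induced, 3 libraries). Experiment 2 compared parental HEK293 cells given doxycycline (parental, 3 libraries) with the same stable line given doxycycline (induced, 3 libraries). The stable line came from an Rbfox2-deficient clone and carried HA- and Flag-tagged mouse Rbfox1 behind an inducible promoter. The protocol gives 0.5 µg/ml doxycycline for 2 weeks. Both arms of experiment 1 are therefore 1 Rbfox2-deficient clone that carries the transgene, whereas the arms of experiment 2 differ in the clone, in Rbfox2 and in Rbfox1 at once. Within experiment 2 these differences cannot be told apart, and DNA copy number was not measured.

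A circRNA forms when the spliceosome joins a downstream splice donor to an upstream splice acceptor of the same transcript, which is called back-splicing. The read that crosses this junction is the only read that is specific to the circle, so its number depends both on how much of the host is transcribed and on how often the transcript is back-spliced. HEK293 cells have an abnormal set of chromosomes that can drift between sublines, and distal 8q holds genes of translation, chromosome maintenance, adhesion and membrane traffic.

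The libraries of experiment 1 held 34025315 to 55298749 reads in genes and 10004 to 22661 back-splice reads, and those of experiment 2 held 37663525 to 50261916 and 18945 to 28691. Distal 8q took 0.961% to 1.25% of the back-splice reads in experiment 1 and 1.07% to 1.87% in experiment 2. RBFOX1 counts followed the labels, with 3.77 ± 0.584 CPM (read counts scaled to the library size; SD, n = 3) in uninduced and 39.2 ± 0.394 in induced cells of experiment 1, and 0 reads in all 3 parental libraries against 40.2 ± 0.704 CPM in the induced libraries of experiment 2. RBFOX2 stood at 183 ± 0.0715 CPM in parental cells and 50.8 ± 4.76 in the induced clone of experiment 2, so reads of this gene remained in the Rbfox2-deficient line. Vimentin, keratins 8 and 18 and N-cadherin were expressed in all groups, the leukocyte marker PTPRC had at most 2 reads in a library, and the neurofilament gene NEFM stood at 36.0 ± 2.34 CPM in parental cells but 0.504 ± 0.112 in the induced clone of experiment 2. Of the gene reads, 21.7% to 24.1% belonged to the mitochondrial ribosomal RNA MT-RNR2 in experiment 1 and 0.0286% to 0.0638% in experiment 2, so levels are compared only within an experiment. Uninduced library 3 differed most from its replicates, with a chi-square per degree of freedom over genes of 36.2 and 31.6. The other pairs of replicates gave 5.22 to 17.5. Some results of experiment 1, but not all, are given without uninduced library 3 as well. In bulk RNA, fewer expressing cells and less RNA per cell cannot be told apart.

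The distal 8q circRNAs were almost all built from exons. Of the 501, 495 were exonic and 6 intronic. Their median was 4 exons and 637 nt of spliced length, beside 582 nt on the rest of chromosome 8 and 557 nt over all circRNAs. A single exon made up 4.04% of them, beside 4.83% on the rest of the chromosome, and their median flanking intron was 7582 nt, beside 5814 nt. Most were rare, and 56 of the 501 had at least 10 reads over all 12 libraries. Such circRNAs numbered 104 of 1121 on the rest of the chromosome and 4163 of 44042 in all. A further 209, or 41.7%, were seen by 1 read, beside 45.1% on the rest of the chromosome and 46.5% in all.

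A few hosts supplied most of the 3267 distal back-splice reads. PTK2, the focal adhesion kinase, gave 762 reads from 66 circRNAs, or 23.3%. ASAP1, which activates the GTPase of Arf proteins in membrane traffic, gave 504, and TBC1D31, a protein of centriolar satellites, gave 331. Together these 3 hosts held 48.9% of the reads, and the 12 hosts with most reads held 75.0%.

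**Figure D1:**
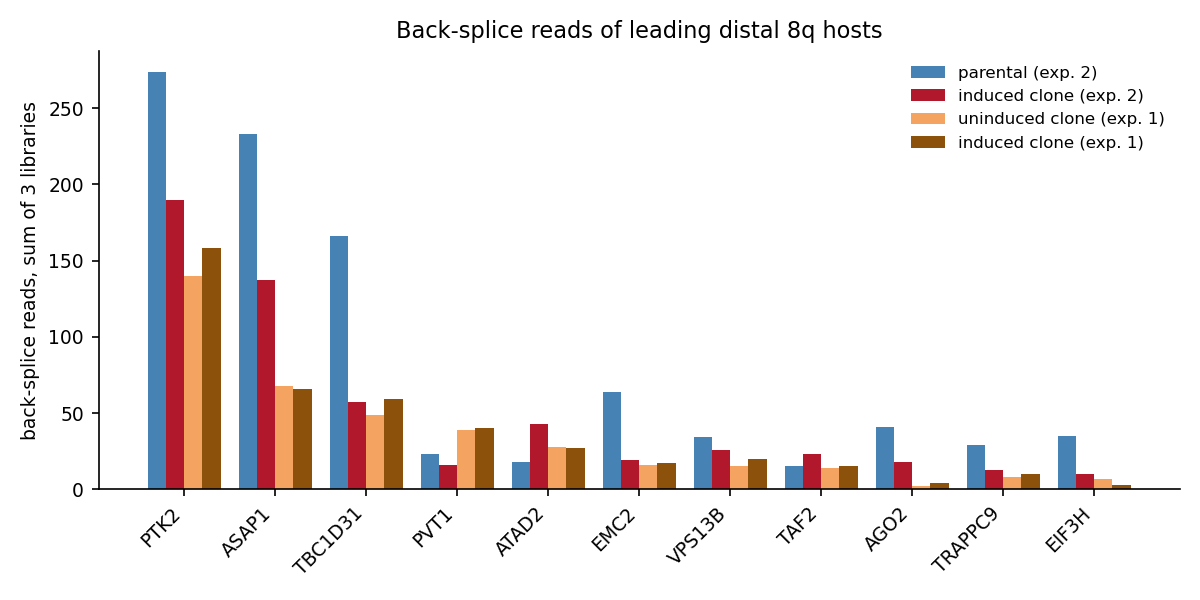
Back-splice reads, summed over the 3 libraries of each group (vertical axis), for leading distal 8q hosts (horizontal axis). PTK2, ASAP1 and TBC1D31 lead in parental cells with 274, 233 and 166 reads, and ATAD2 and TAF2 have more reads in the induced clone of experiment 2 than in parental cells.

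Many circRNAs of a host shared 1 splice site. In PTK2, which is on the minus strand, 16 of 66 circRNAs ended at position 141900868, and they held 71.8% of its back-splice reads. TBC1D31 showed this most among the 3 leading hosts, with 15 of 27 circRNAs starting at 124089351 and 94.9% of the reads. AGO2, the Argonaute protein that binds small RNAs and cleaves their targets, had 9 of 11 circRNAs at 141595410 and 95.4% of the reads. These circRNAs overlap one another and are not independent of each other.

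The most abundant distal 8q circRNA came from ASAP1 (chr8:131164982-131193126, minus strand, 6 exons, 550 nt). It had 61, 50 and 43 reads in the parental libraries and 51, 23 and 29 in the induced libraries of experiment 2. Its counts in experiment 1 were 10, 7 and 8 uninduced and 11, 10 and 9 induced. In both experiments the groups overlapped.

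Next came a 3-exon circRNA of PTK2 (chr8:141874411-141900868, 482 nt), with 38, 25 and 20 reads in parental and 27, 18 and 29 in induced libraries of experiment 2. In experiment 1 it had 10, 10 and 4 reads uninduced and 13, 7 and 9 induced. Both pairs of groups overlapped. PVT1, a long non-coding RNA, gave a 1-exon circRNA of 410 nt (chr8:128902835-128903244, plus strand) that made 111 of the 118 back-splice reads of its host.

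In experiment 2, the contrast on which the region was chosen, 74 hosts could be matched to a gene count, and 60 of them had a log2 difference below 0 between the induced clone and parental cells. Their median was -0.46, beside -0.0091 over all 17945 genes tested and -0.09 for 193 hosts on the rest of chromosome 8. Past the threshold of edgeR's quasi-likelihood test (adjusted p under 0.05) lay 51 of the 74 hosts on the lower and 11 on the higher side, beside 65.0% of all genes in either direction, 32.9% lower and 32.1% higher. On the rest of chromosome 8 these counts were 80 and 54. The counts for the region follow from how it was chosen, so nothing is read from them.

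Within the region the values were not even. The 20 hosts that start between 100 and 110 Mb, here the inner block, had a median log2 difference of -0.06, with 8 called lower and 5 higher. The 54 hosts farther out, here the outer block, had a median of -0.62, which is 0.650 of the parental level, with 43 called lower and 6 higher. This division was drawn after the values were seen. Over all genes 32.9% were called lower and 32.1% higher, and nothing is read from the counts of these blocks and steps. By 10-Mb steps the medians were -0.64 for 6 hosts from 110 to 120 Mb, -0.51 for 20 hosts from 120 to 130 Mb, -0.46 for 8 hosts from 130 to 140 Mb and -0.72 for 20 hosts beyond, of which 18 were called lower and 0 higher.

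**Figure D2:**
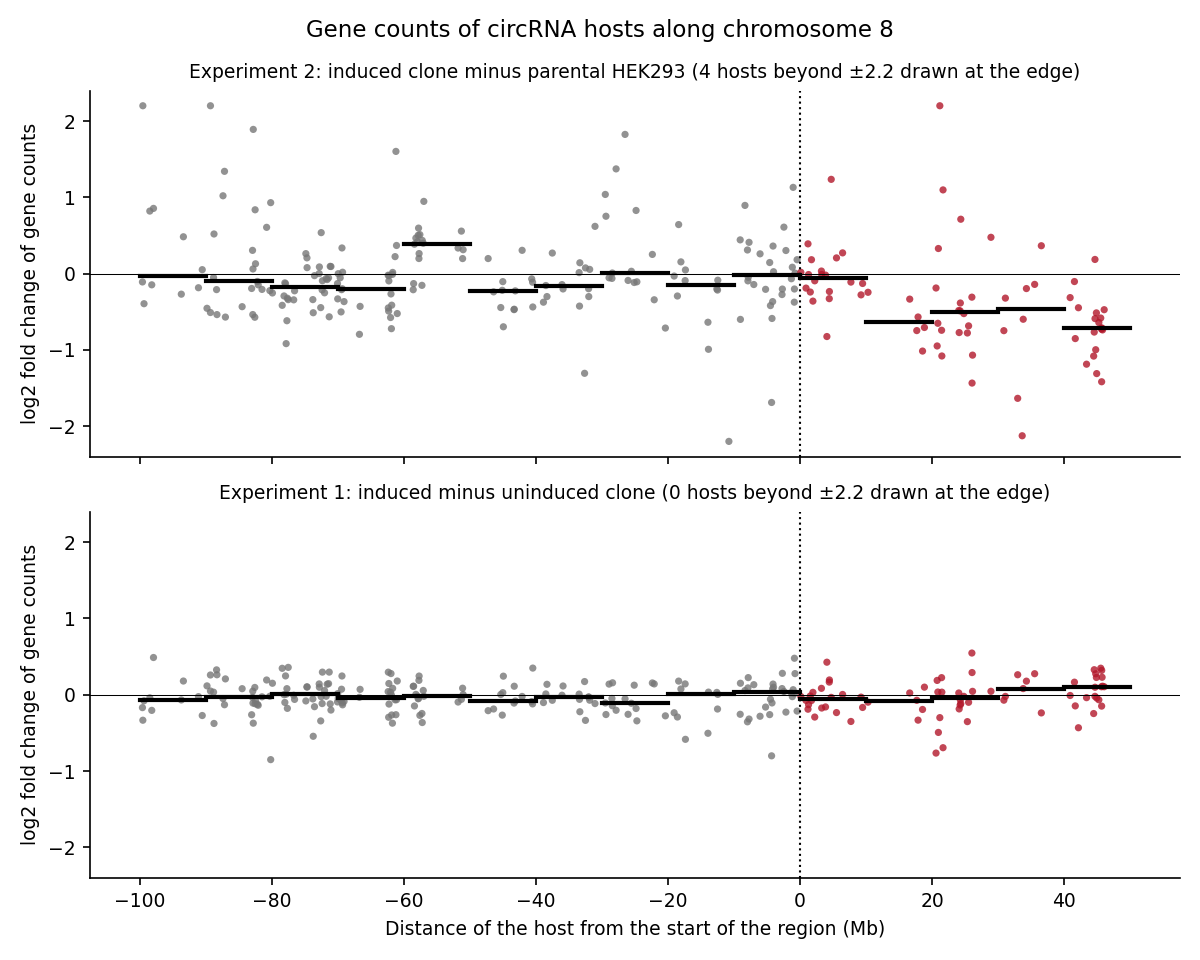
Log2 difference of gene counts (vertical axis) for circRNA hosts along chromosome 8, by distance in Mb from the start of the region (horizontal axis, dotted line at 0); upper panel, experiment 2, lower panel, experiment 1. Each point is a host (red, distal 8q), bars are medians of 10-Mb steps, and hosts beyond ±2.2 are drawn at the edge; medians beyond 10 Mb lie between -0.72 and -0.46 in experiment 2 and between -0.08 and 0.10 in experiment 1.

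At the start of the region itself the values showed no step. The 3 hosts just outside were POP1 at -0.20, NIPAL2 at 0.0063 and STK3 at 0.18, and the 3 just inside were VPS13B at 0.017, COX6C at -0.19 and SPAG1 at 0.39. Around 110 Mb the log2 differences in order along the chromosome were -0.28 for EIF3E, -0.13 for EMC2, -0.25 for NUDCD1, -0.33 for TRPS1, -0.75 for EIF3H, -0.57 for RAD21, -1.02 for MED30 and -0.71 for EXT1. In this order the hosts lower by over 0.5 began after TRPS1, a GATA-type transcriptional repressor, although ATP6V1C1 in the inner block stood at -0.83. Genes without a detected circRNA in this stretch did not all keep to that order. Before TRPS1, SYBU stood at 1.20, and KCNV1 and CSMD3, at 2.63 and 0.474 CPM in parental cells, stood at -9.77 and -3.99. After TRPS1, UTP23 stood at -0.51 and AARD at 1.14. Protein-coding genes without a detected circRNA had a median of -0.72 from NUDCD1 to the chromosome end (58 called lower and 10 higher of 78) and -0.06 before VPS13B (46 and 32 of 121). From VPS13B to before NUDCD1 only 8 such genes were tested, and they stood in the other direction, with a median of 0.82. Of these, 2 were called lower and 5 higher. Beside all these counts stand 32.9% of all genes called lower and 32.1% higher.

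Medians of this size were found on other chromosomes too. Among 255 steps of the genome with at least 10 tested hosts, 13 had a median below -0.5 in experiment 2 and 18 one above 0.5, and 2 of the 13 were on distal 8q. Steps ranged from -1.33 to 1.42. In experiment 1 they ranged from -0.29 to 0.45, and 0 lay beyond 0.5 in either direction. Elsewhere on chromosome 8 the step from 40 to 50 Mb had a median of 0.39. Of its 18 hosts, 15 were called higher and 2 lower, beside 32.1% and 32.9% of all genes.

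Summed host reads can be compared within single libraries. The reads of outer hosts divided by those of hosts on the rest of chromosome 8 came to 0.327, 0.323 and 0.316 in the parental libraries and 0.232, 0.233 and 0.232 in the induced libraries of experiment 2, a fold of 0.722. These groups did not overlap. The same ratio was 0.247, 0.248 and 0.235 in uninduced and 0.253, 0.240 and 0.250 in induced libraries of experiment 1, which overlapped. For the inner block the ratio was 0.237 ± 0.00276 (SD, n = 3) in parental and 0.221 ± 0.00106 in induced libraries of experiment 2, a smaller difference.

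**Figure D3:**
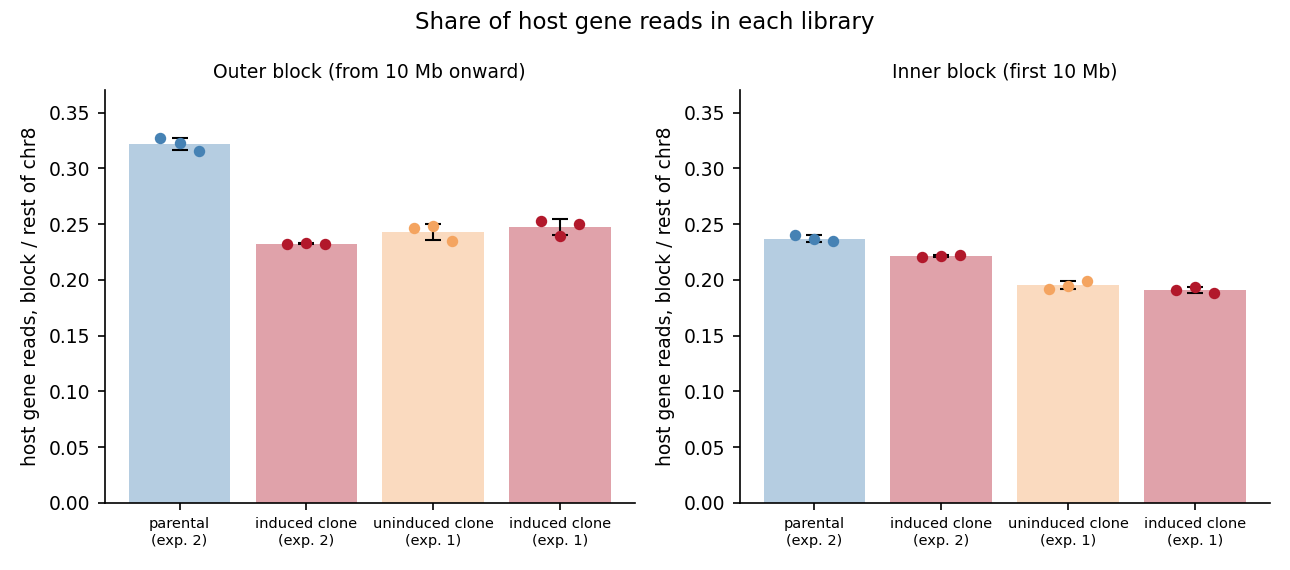
Reads of outer-block hosts (left) and inner-block hosts (right) divided by reads of hosts on the rest of chromosome 8 (vertical axis, from 0), by group. Bars are means, error bars SD over 3 libraries and points single libraries; the parental libraries of the outer block sit at 0.316 to 0.327, above the induced libraries of the same experiment at 0.232 to 0.233, and the libraries of experiment 1 lie at 0.235 to 0.253.

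Among the hosts with most back-splice reads, PTK2 had 164, 174 and 180 CPM in parental libraries and 96.8, 96.3 and 93.8 in induced libraries of experiment 2. The groups did not overlap, and the log2 difference was -0.85 ± 0.05 (SE). TAF2, a subunit of the general transcription factor TFIID, had 208, 203 and 215 CPM in parental and 108, 108 and 108 in induced libraries, a log2 difference of -0.95 ± 0.05. EIF3H, a subunit of the translation initiation factor eIF3, lay in the same range of differences, with 225, 229 and 219 CPM against 136, 128 and 136. TBC1D31 had 74.2 ± 2.33 CPM in parental and 43.4 ± 2.11 in induced libraries. ASAP1 differed less, with 58.8, 59.3 and 60.6 CPM in parental and 50.4, 51.2 and 41.4 in induced libraries. AGO2 overlapped between the groups, with 54.3, 60.8 and 57.0 CPM against 58.0, 56.0 and 46.1.

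The inner block held hosts with little difference and hosts that stood far apart in the same libraries. VPS13B, which tethers membranes at the Golgi, had 56.6, 56.6 and 61.9 CPM in parental and 61.3, 64.2 and 51.8 in induced libraries, and its groups overlapped. ATP6V1C1, a subunit of the proton pump of lysosomes, was the lowest inner host, with 121, 132 and 125 CPM in parental and 69.1, 71.1 and 73.4 in induced libraries. EMC2, a subunit of the endoplasmic reticulum membrane complex, was slightly lower, with 50.7 ± 0.25 CPM in parental and 46.4 ± 1.02 in induced libraries.

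**Figure D4:**
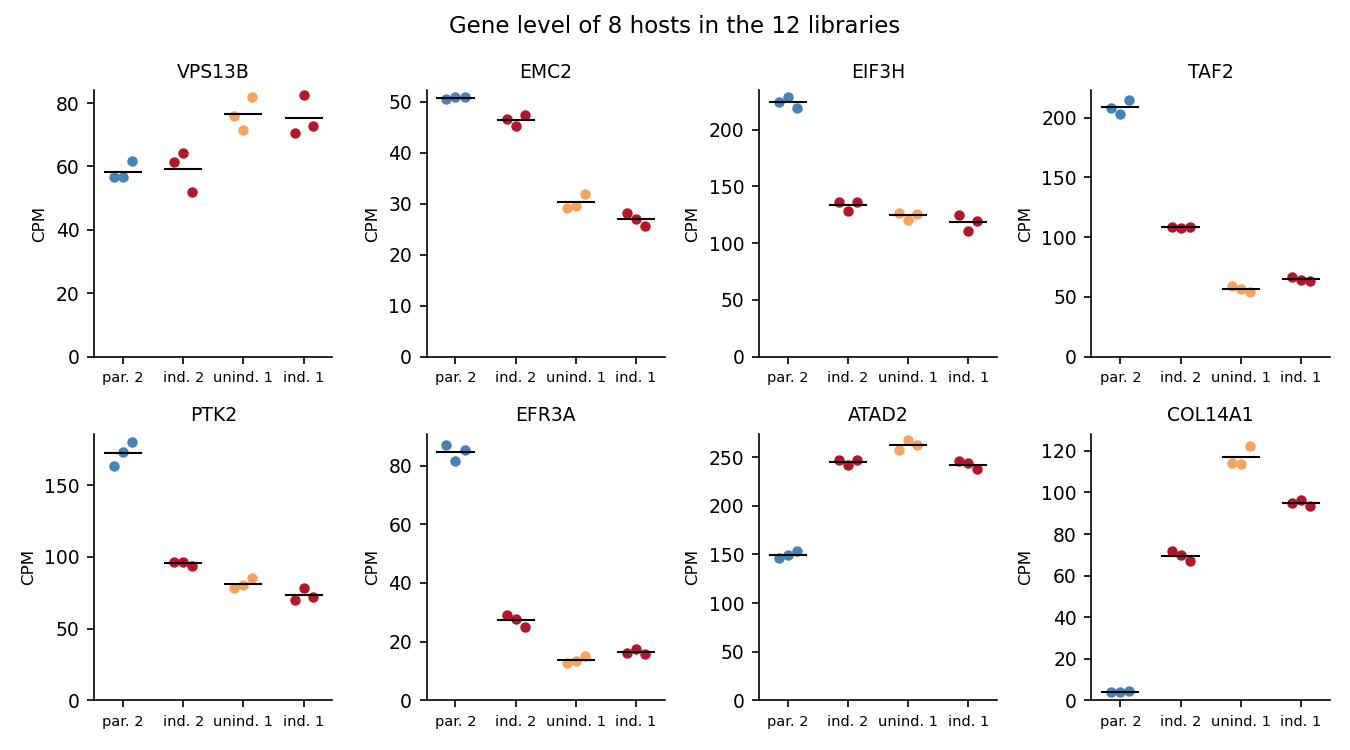
Gene level in CPM (vertical axis, from 0) of 8 distal 8q hosts in the 12 libraries, 3 per group; "par. 2" and "ind. 2" are parental and induced libraries of experiment 2, "unind. 1" and "ind. 1" those of experiment 1, and lines are means. PTK2 stands at 173 CPM in parental and 95.6 in induced libraries of experiment 2, whereas COL14A1 stands at 4.10 and 69.5; levels of the 2 experiments were scaled separately.

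The hosts with the lowest values in experiment 2 lay in the outer block and had 23 back-splice reads or fewer each over all libraries. EFR3A, which brings a phosphatidylinositol kinase to the plasma membrane, had 87.1, 81.7 and 85.4 CPM in parental and 29.1, 27.7 and 25.0 in induced libraries, a log2 difference of -1.64 ± 0.06. KIAA0196 (strumpellin, a subunit of the WASH complex on endosomes) stood at 112 ± 0.296 and 41.4 ± 2.76 CPM. TONSL, which acts at damaged replication forks, stood at 69.0 ± 6.30 and 25.8 ± 1.54 CPM. The log2 differences of NRBP2, TSNARE1 and RHPN1 were -1.31, -1.19 and -1.08. KIAA0196, TONSL, NRBP2 and RHPN1 had 7, 3, 1 and 2 back-splice reads over all libraries. LRRC6 lay lower still, at -2.13, but at 1.32 CPM or less in every library, so it fell below the level set for naming hosts.

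The hosts with the highest values went against the median of the region. COL14A1, which encodes collagen XIV, had 3.81, 3.93 and 4.57 CPM in parental and 71.7, 69.8 and 67.0 in induced libraries, a log2 difference of 4.08 ± 0.08. RIMS2, a scaffold of the presynaptic active zone, stood at 4.83 ± 0.221 and 11.4 ± 0.664 CPM. SNTB1, a syntrophin of the dystrophin complex, stood at 9.23 ± 1.42 and 19.8 ± 2.10 CPM. ATAD2, a chromatin-bound ATPase with a bromodomain, had 147, 149 and 154 CPM against 248, 242 and 247, a log2 difference of 0.71 ± 0.05. PVT1 and SPAG1, which is needed to assemble ciliary dynein, were higher by 0.48 and 0.39. Of these, COL14A1, SNTB1, ATAD2 and PVT1 lie in the outer block. The host next to COL14A1 on the proximal side, DEPTOR, also stood higher, by 0.33. The hosts on either side of these, DSCC1 and MRPL13, stood lower, at -0.65 and -0.74.

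Back-splice reads of distal 8q were lower in the clone of experiment 2 as well. The libraries held 484, 414 and 455 distal back-splice reads in parental cells and 277, 203 and 266 in the induced clone. Divided by the back-splice reads of the rest of chromosome 8, that is 0.692 ± 0.00879 (SD, n = 3) and 0.484 ± 0.0527, a log2 difference of -0.52 ± 0.09 (SE). By block, the log2 difference of this ratio was -0.86 ± 0.35 for the inner and -0.45 ± 0.05 for the outer block. The ratio of host gene reads differed by -0.099 for the inner and -0.47 for the outer block. Inner back-splice reads numbered only 24 to 104 per library, and the blocks were drawn after the values were seen. Nothing is therefore read from the contrast between blocks. The outer block made up 35.0% (95% Wilson interval 32.2 to 37.9), 35.7% (32.6 to 38.8) and 35.3% (32.4 to 38.3) of the back-splice reads of outer block and rest together in parental libraries. In induced libraries these shares were 29.6% (26.5 to 32.9), 27.2% (23.9 to 30.7) and 28.8% (25.7 to 32.2). The point values did not overlap, although some of the intervals did. Intervals cover counting error only.

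**Figure D5:**
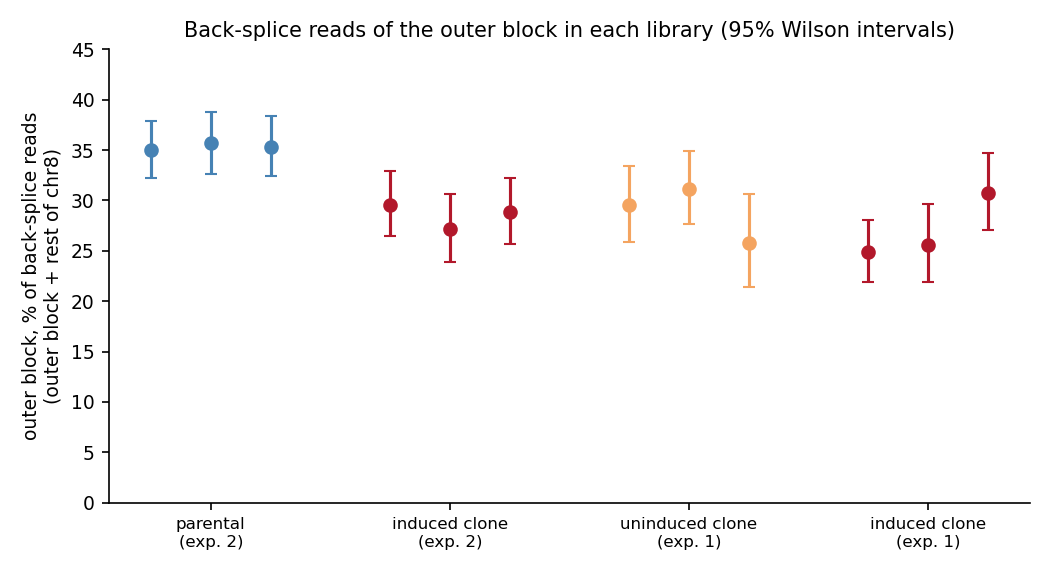
Outer-block back-splice reads as a percent of the back-splice reads of outer block and rest of chromosome 8 (vertical axis, from 0) in each of 12 libraries, by group; bars are 95% Wilson intervals. Parental libraries lie at 35.0% to 35.7%, the induced libraries of the same experiment at 27.2% to 29.6%, and the libraries of experiment 1 at 24.8% to 31.2%.

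Relative to the gene reads of the same hosts, the yield of back-splice reads in the outer block stood at nearly the same value in both arms of experiment 2. It was 1.96 ± 0.313 per 1000 gene reads in parental and 1.91 ± 0.221 in induced libraries (SD, n = 3). On the rest of chromosome 8 it was 1.16 ± 0.218 and 1.11 ± 0.0617. In the inner block, which had fewer reads, the yield was lower in the clone, with 0.713 ± 0.135 in parental and 0.428 ± 0.170 in induced libraries. EMC2 is an inner host where this is visible, with 31, 14 and 19 back-splice reads in parental and 4, 6 and 9 in induced libraries, or 9.25 and 3.63 per 1000 gene reads. Not all inner hosts went this way. VPS13B differed little, with 4.26 and 3.89 per 1000, and RIMS2 stood higher in induced libraries, with 6.05 and 9.32 from 4 and 12 back-splice reads. In the outer block PTK2 gave 111, 84 and 79 reads against 79, 48 and 63, or 11.6 and 17.6 per 1000 gene reads. TBC1D31 and ASAP1, also in the outer block, stood the other way, with 16.4 and 11.6 per 1000 for TBC1D31 and 28.7 and 25.4 for ASAP1.

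By single circRNAs, 44 distal 8q circRNAs of 21 hosts had enough reads to be fitted in experiment 2, with a median log2 difference of -0.57, beside -0.19 over all 2381. Of the 44, 2 were called, both lower, where 1.68% of all were called and 0.966% called lower. They were a TBC1D31 circRNA of 3 exons (chr8:124089351-124096580), with 23, 8 and 30 reads in parental and 7, 4 and 0 in induced libraries, and a 2-exon circRNA of the mitochondrial folate carrier gene SLC25A32 (chr8:104417004-104420012). The latter, named after its values were seen, had 10, 8 and 8 reads in parental and 0 in all 3 induced libraries, where a count of 0 allows up to 3 reads each. It passed the filter of a read in at least 3 libraries through the parental group alone, so nothing is read from its call. Leaving out parental library 1, parental library 3 or induced library 1 in turn left 0 calls, and leaving out any 1 of the other libraries left 1. Without any 1 parental library the SLC25A32 circRNA no longer met the filter and was not fitted, so those fits could not call it. Measured against the host's gene counts in 1 model, 0 of the 44 were called (2 at an unadjusted p under 0.05; limma called 0, with 3), beside 0.0856% of all 2336, and the median was -0.04, beside -0.21.

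Within the clone, induction of Rbfox1 was accompanied by changes of distal 8q hosts in both directions, with a median near 0. Experiment 1 was not used to choose the region, so its tests are independent of that choice. Of 73 hosts tested, 20 changed (edgeR's quasi-likelihood test, adjusted p under 0.05), 11 lower and 9 higher. Over all 18978 genes tested, 20.9% changed, 10.4% lower and 10.5% higher, so the hosts' 27.4% stands near the background. Their median log2 difference was -0.02, beside 0.0026 for all genes and -0.03 for hosts on the rest of chromosome 8. The count of 20 dropped to 13 when uninduced library 1 was left out, and to 8, 11 and 8 when the induced libraries 1, 2 and 3 were left out in turn. Without uninduced library 3 it was 26. Protein-coding genes without a detected circRNA, with all libraries in, had a median of 0.14 from NUDCD1 to the chromosome end. Of these 74 genes, 18 lay below 0, beside 9412 of the 18978 genes tested. Before VPS13B the median of such genes was -0.07. The cause of this difference was not tested, and neither median was computed without uninduced library 3. For some of the 74 genes that library was the lowest uninduced one, as for CYC1 at 63.8, 64.1 and 41.6 CPM. For others, such as RNF139 at 30.4, 30.1 and 30.2 CPM, it was not.

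The ratio of distal host reads to those of the rest of chromosome 8 was 0.438 ± 0.00439 in uninduced and 0.438 ± 0.00529 in induced libraries (SD, n = 3; two-sided exact permutation p = 0.9, where 0.1 is the smallest p that 3 against 3 libraries allow). For the outer block alone the log2 difference was 0.02 ± 0.03 (SE; exact permutation p = 0.5), and for the inner block it was -0.03 ± 0.02 (exact permutation p = 0.2). Over distal back-splice reads the ratio was 0.506 ± 0.0568 and 0.467 ± 0.0772 (exact permutation p = 0.5). These tests had too few libraries to pass 0.05. Without uninduced library 3 the log2 differences were -0.0078 for distal host reads and -0.22 for distal back-splice reads, and 0 circRNAs were called.

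The hosts that fell most on induction included enzymes and signalling proteins. ENPP2, which encodes the secreted lysophospholipase autotaxin, had 3.30, 3.41 and 3.48 CPM uninduced and 2.02, 1.99 and 1.98 induced, a log2 difference of -0.76 ± 0.11 (SE; adjusted p = 0.00256, edgeR). SNTB1 had 28.5, 25.7 and 29.4 CPM uninduced and 17.6, 17.3 and 16.7 induced, a difference of -0.69 ± 0.07 (adjusted p = 0.000601, edgeR). Neither pair of groups overlapped, but both hosts were named among those already called, so this adds nothing to the tests. SNTB1 was thus lower with induction in experiment 1, and higher in the clone than in parental cells in experiment 2.

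Smaller falls were seen in 4 further named hosts. DEPTOR, an inhibitor of the mTOR kinase, fell by 0.49 on the log2 scale. DENND3, an exchange factor for a Rab GTPase, fell by 0.43, and OXR1, which protects against oxidative damage, fell by 0.35. TMEM65, a protein of the inner mitochondrial membrane, fell by 0.35, with 46.8, 47.5 and 60.1 CPM uninduced and 40.2, 41.6 and 39.1 induced, and by 0.23 without uninduced library 3. In each of the 4 the groups did not overlap. All 4 were named among hosts already called, so this separation adds nothing to their tests.

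SQLE, the squalene epoxidase of cholesterol synthesis, rose most, with 186, 170 and 192 CPM uninduced and 279, 246 and 274 induced, a log2 difference of 0.55 ± 0.07 (adjusted p = 0.00156, edgeR). ATP6V1C1 had 25.2, 26.5 and 26.5 CPM uninduced and 36.6, 34.7 and 33.8 induced, a difference of 0.43 ± 0.06 (adjusted p = 0.00207, edgeR). HSF1, the heat shock transcription factor, rose by 0.35, or by 0.23 without uninduced library 3, and ZC3H3, a zinc-finger protein of mRNA export, by 0.33. KIAA0196 rose by 0.29 and ZFAT, a zinc-finger transcription factor, by 0.28. The calls of DENND3, TMEM65, HSF1, ZC3H3, KIAA0196 and ZFAT were lost in at least 2 of the alternative fits each. Only the hosts that fell or rose most were checked in this way. The experiment 1 calls of TBC1D31, TAF2, RAD21 and TRIB1, given below, were not.

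Hosts with most back-splice reads moved little in experiment 1. TBC1D31 fell, with 42.5, 42.1 and 41.6 CPM uninduced and 36.2, 37.2 and 37.4 induced (log2 difference -0.19 ± 0.05; adjusted p = 0.0292, edgeR), and TAF2 rose, with 59.5, 56.8 and 53.8 against 66.4, 64.2 and 63.1 (0.19 ± 0.06; adjusted p = 0.0417, edgeR). PTK2 stood at 78.1, 80.5 and 85.0 CPM uninduced and 69.7, 78.1 and 72.4 induced, which overlapped (adjusted p = 0.121, edgeR). ASAP1 stood at 46.7 ± 4.65 and 46.0 ± 5.31 CPM (adjusted p = 0.896, edgeR).

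No distal 8q circRNA passed the test on induction at this depth. Of 23 circRNAs of 13 hosts with enough reads, 0 were called by edgeR, with 1 at an unadjusted p under 0.05, and DESeq2 likewise called 0, with 1. Over all 1701 circRNAs tested the called share was 0.0%, with 77 at an unadjusted p under 0.05 by edgeR and 14 by DESeq2. Against host gene counts, 0 of the 23 were called by edgeR (1 at an unadjusted p under 0.05; limma called 0, with 1), and again 0.0% of all 1676. The 1 circRNA below 0.05 in both edgeR fits came from the Mediator subunit gene MED30 (chr8:118540890-118543066, 2 exons), with 0, 1 and 0 reads uninduced and 3, 2 and 6 induced (adjusted p = 0.965, edgeR); it is named because it was the only one. Back-splice reads per 1000 gene reads of the outer block were 1.29 ± 0.306 uninduced and 1.30 ± 0.178 induced (SD, n = 3; exact permutation p = 0.9).

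Distal 8q genes, hosts or not, were also grouped by role, from 7 lists with 94 genes. In experiment 2 the lists are again a description, and their counts stand beside 32.9% of all genes called lower and 32.1% higher. There 11 of 14 genes of translation and RNA processing were called lower and 2 higher, with a median log2 difference of -0.58. RPL8, a protein of the large ribosomal subunit, stood at 1258 ± 59.97 CPM in parental and 848 ± 40.0 in induced libraries, and EEF1D, an exchange factor of elongation, at 501 ± 5.61 and 333 ± 8.25. PABPC1, the poly(A)-binding protein, lies in the inner block and was among the 2 higher, with 528, 528 and 549 CPM against 621, 632 and 567.

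Of 9 genes for mitochondrial proteins, 8 were called lower and 0 higher, with a median of -0.78 beside -0.0091 over all genes. NDUFB9, a subunit of respiratory complex I, had 182, 168 and 181 CPM in parental and 76.9, 70.5 and 78.7 in induced libraries. CYC1, the cytochrome of complex III, stood at 141 ± 8.28 and 72.5 ± 0.936 CPM. TOP1MT, the mitochondrial topoisomerase, stood at 74.3 ± 4.37 and 42.4 ± 1.90, and COX6C, a subunit of cytochrome oxidase in the inner block, at 66.5 ± 1.58 and 58.2 ± 2.15.

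Genes of chromosome maintenance and the cell cycle gave 7 lower and 1 higher of 9, with a median of -0.65. RAD21, the kleisin subunit of cohesin, had 256, 249 and 253 CPM in parental and 172, 170 and 168 in induced libraries. The 1 higher was ATAD2, and RRM2B, a ribonucleotide reductase subunit in the inner block, overlapped between the groups at 56.2 ± 2.85 and 57.6 ± 3.77 CPM. Transcription factors and coactivators gave 16 lower and 2 higher of 22 (median -0.43), vesicle traffic and endosome genes 9 and 1 of 11 (median -0.52), and ubiquitin and protein turnover genes 4 and 2 of 8 (median -0.25). Among them, PHF20L1, a reader of histone methylation, stood at 181 ± 6.58 CPM in parental and 120 ± 0.985 in induced libraries, and NDRG1, a stress-responsive protein, at 91.3 ± 3.32 and 79.7 ± 2.07. DERL1, which acts in the degradation of misfolded proteins at the endoplasmic reticulum, had 78.0, 82.9 and 80.5 CPM against 56.2, 57.9 and 58.5. TRIB1, a pseudokinase that recruits a ubiquitin ligase, was among the higher, with 54.2 ± 3.74 CPM in parental and 102.5 ± 2.94 in induced libraries. Adhesion, matrix and signalling genes divided evenly, with 6 lower and 7 higher of 16 and a median of -0.02. EXT1, which builds heparan sulfate chains, had 98.2, 92.3 and 85.8 CPM in parental and 59.6, 55.6 and 54.0 in induced libraries, without overlap, and YWHAZ, a 14-3-3 adaptor protein in the inner block, stood at 568 ± 8.68 and 442 ± 8.28.

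In experiment 1 the medians of the same lists lay between -0.19 and 0.31, above 0 in all but adhesion, matrix and signalling. They were not computed without uninduced library 3. That library was the lowest uninduced one for some members, such as EEF1D at 169, 166 and 118 CPM, but not for others, such as RAD21. The share called was at most 28.6% in 6 of the 7, beside 20.9% of all genes (10.4% lower, 10.5% higher). Translation and RNA processing gave 1 lower and 3 higher of 14 (median 0.11), mitochondrial proteins 2 and 0 of 9 (0.05), chromosome and cell cycle 1 and 1 of 9 (0.04), and transcription factors 1 and 4 of 22 (0.09). Ubiquitin and protein turnover gave 0 and 2 of 9 (0.31), vesicle traffic 0 and 2 of 10 (0.14), and adhesion, matrix and signalling 6 and 2 of 16 (-0.19), or 50.0%. RAD21 fell, with 342, 350 and 369 CPM uninduced and 284, 280 and 278 induced (log2 difference -0.33 ± 0.06; adjusted p = 0.00458, edgeR). TRIB1 rose, with 47.6, 49.3 and 47.3 CPM uninduced and 63.5, 69.7 and 67.8 induced (0.48 ± 0.06; adjusted p = 0.00102, edgeR). RPL8, NDUFB9, CYC1 and TOP1MT did not pass the test in experiment 1.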

How the data were processed

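Gene reads and back-splice reads were analysed in 12 libraries. Both are read counts as the authors deposited them, not normalized. STAR 2.5.2b and GRCh37 (hg19) are named in the submitters' processing notes; the circRNA caller, gene counter, annotation and strand setting are not given in the sources used here, so reads of overlapping or antisense genes cannot be told apart. Back-splice reads may also be part of the gene counts. The members and gene lists were chosen with earlier results of these data known. Of 76 hosts, 74 were matched to a gene count, 65 by the files' symbols, 8 by gene ID and 1 by a RefSeq synonym. Gene rows without a symbol (2837 and 2206) stayed in the fits.

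Gene counts were filtered with edgeR's filterByExpr (minimum count 10, total 15), scaled by TMM and tested with the quasi-likelihood test of edgeR 4.0.16 (R 4.3.3), each experiment on its own, with Benjamini-Hochberg adjustment over all genes and a threshold of 0.05. CPM use the TMM library size. CircRNAs with at least 10 reads in an experiment in total, seen in at least 3 libraries, were tested the same way with the library sizes of the gene counts. A circRNA was compared with its host in 1 edgeR model over 12 columns with the library as a block. DESeq2 1.42.0 and limma 3.58.1 were alternatives. Ratios between libraries were compared by two-sided exact permutation. The main edgeR fits of gene counts, circRNA counts and circRNAs against hosts were tested on simulated counts. The alternative fits, the ratios and the permutation tests were not. The labels do not say that libraries came from separate cultures, so p-values measure the spread between these libraries, which may be technical. No 2 libraries were alike within sampling noise.

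Hosts were named by rule: the 12 with most back-splice reads; in experiment 2, the 6 lowest and 6 highest whose mean log2 CPM reached 1; up to 6 rising and 6 falling most among those called in experiment 1; and 2 to 4 of each role list with the highest CPM. Some genes that the rule covers are not reported here. Sequences of this region are not printed.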

Additional observations from a re-analysis of the deposited data

How the results depend on the processing

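The count of distal 8q hosts called in experiment 1 was 20, and it ranged from 8 to 26 when 1 library was left out. Replicate numbers did not pair the libraries (correlations of same-numbered deviations from -0.11 to 0.194 in experiment 1 and from -0.0162 to 0.0296 in experiment 2). With the replicate number as a block the count was 10 in experiment 1, and 62, as without the block, for the hosts of experiment 2. Called circRNAs of experiment 2 numbered 2, but 1 with at least 5 reads, 1 with DESeq2, 1 with the replicate block and 0 to 1 with 1 library left out. The SLC25A32 circRNA was not fitted when a parental library was left out, so those fits could not call it. The log2 difference of the host read ratio in experiment 1, -0.00047, changed sign to 0.0150 with a start at 95 Mb, 0.0295 with a start at 110 Mb, 0.0302 without the 3 hosts with most reads on each side and 0.0127 with the mean log2 CPM over hosts, an alternative chosen after seeing the data; without 1 library it lay between -0.0090 and 0.0084, and it was 0.0067 without uninduced library 2. In experiment 2 that difference, -0.30, was -0.26 from 95 Mb, -0.45 from 110 Mb, -0.35 against other chromosomes and -0.35 as mean log2 CPM, and -0.31 to -0.29 with 1 library left out. The back-splice ratio of experiment 2 was -0.52 and -0.37 from 110 Mb. The median of distal hosts minus that of the rest of chromosome 8 was -0.37 in experiment 2, -0.24 from 95 Mb, -0.53 from 110 Mb, -0.22 for hosts with at least 10 back-splice reads and -0.39 to -0.32 with 1 library left out. Among named hosts, values near 0 in experiment 2 changed sign with 1 library left out: VPS13B ranged from -0.0464 to 0.103 and RRM2B from -0.0030 to 0.0871. The cause of these changes was not tested. Calls of EMC2 in experiment 2 were lost in 6 alternatives and those of the TBC1D31 circRNA in 8. Of the 501 circRNAs, 56 had at least 10 reads over all 12 libraries, which limits what single circRNAs can show.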
